A study of Homo sapiens with 8 samples.

Results

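The comparison set the 2 libraries of *ERF* KD + *CIC* KO (genotype label CIC-ERF codeletion, the double loss) beside the 2 libraries labelled *CIC* KO, which together are 4 of the 8 RNA-seq libraries of the series. The members were chosen by their labels, not by measured values, and the question was which genes and pathways moved with the added loss. All libraries came from PNT2 cells, a prostate epithelial line immortalized with SV40, and the other 4 were 2 of parental cells (WT) and 2 labelled *ERF* KD, with a replicate A and a replicate B in each of the 4 groups. In the study's lines *ERF* was silenced with short hairpin RNA and *CIC* was disrupted with Cas9 and a guide RNA. The double-loss lines combined a hairpin against *ERF* with a guide against *CIC*. Which hairpin, guide or culture each library came from is not given in the sources used here, so the spread between replicates may hold differences between constructs or may be purely technical.

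CIC and ERF are transcriptional repressors that act downstream of receptor tyrosine kinase and MAPK signalling. CIC, an HMG-box protein, is best known for silencing the PEA3 factors *ETV1*, *ETV4* and *ETV5* and several feedback inhibitors of MAPK signalling, and ERF is a repressor of the ETS family, which binds the same core DNA element as the PEA3 factors. When the kinase pathway is active both repressors are removed from their targets.

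The 4 libraries compared held between 19477473 and 25813157 estimated counts, and both extremes were *ERF* KD + *CIC* KO libraries (replicate B and replicate A). Levels are in CPM (library-size scaled counts with TMM factors), a unit that is not corrected for gene length. Log2 fold changes, standard errors (SE) and adjusted p-values are from edgeR's quasi-likelihood test on the 8 libraries with the replicate letter as a block, with Benjamini-Hochberg adjustment over 14653 genes. A gene is called changed at an adjusted p under 0.05. The epithelial identity of the 4 libraries was checked with *CDH1* (258 to 341 CPM) and *EPCAM* (250 to 381 CPM). The luminal genes *KLK3*, *MSMB* and *FOLH1* had at most 3 counts in every one of the 4 libraries. Among 10 immune markers *FCGR3A* and *MS4A1* were likewise at or under 3 counts, and the summed level of the 10 was 32.6 and 57.6 TPM in the libraries labelled *CIC* KO and 17.8 and 23.5 TPM in *ERF* KD + *CIC* KO.

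*ERF*, on chromosome 19 (42247572 to 42255157, minus strand, GRCh38), was at 55.8 and 55.9 CPM in WT and at 81.2 and 77.8 CPM in the libraries labelled *ERF* KD. The libraries labelled *CIC* KO held 18.8 and 11.7 CPM, and the double loss held 11.6 and 10.4 CPM. *ERF* mRNA was therefore low in both groups compared, with a difference of -0.46 on the log2 scale (SE 0.18, adjusted p = 0.307), but not where the label reads *ERF* KD. The names of the deposited single-loss files also carry the opposite letters to their labels. The groups are named by their labels here, although *ERF* mRNA goes against the label *CIC* KO. The sign of a difference does not depend on these names, but which loss counts as added does. By the label it would be that of *ERF*, and by the letters of the file names that of *CIC*. *CIC*, on the same chromosome (42268537 to 42295797, plus strand), was at 132 and 131 CPM in the libraries labelled *CIC* KO, the level of WT (128 and 129 CPM). In *ERF* KD + *CIC* KO it was at 90.9 CPM in replicate A and 66.4 CPM in replicate B. The groups did not overlap, and the difference of -0.75 (SE 0.14, adjusted p = 0.0849) did not pass the test. It passed in 3 of 17 alternatives (DESeq2, no filter on low counts, and only the 4 libraries compared), and over the 17 its adjusted p ran from 0.000405 to 0.446. A guide RNA need not lower the mRNA of the gene it cuts.

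Compared to the libraries labelled *CIC* KO, 49 of 14653 genes (0.334%) were called in *ERF* KD + *CIC* KO, 10 higher (0.0682%) and 39 lower (0.266%). All 49 were protein-coding, and each moved the same way within both replicate letters. Among all genes 29.1% were below 0 in both letters and 28.3% above. In 31 of the 39 lower genes both WT libraries were also above both double-loss libraries (3671 of all 14653 genes were). In 9 of the 10 higher genes both were below (3578 of all genes). The 49 were selected by a test on the double-loss values with the letter as block, so neither comparison is separate support. Unadjusted p-values under 0.05 were found for 2102 genes, 983 higher (6.71%) and 1119 lower (7.64%), and the median log2 fold change of all genes was -0.0009. The size of the called changes ran from 0.76 to 3.35 among the higher genes and from 0.87 to 3.66 among the lower genes. Without the replicate block no gene was called (0 of 14653, with 1216 at an unadjusted p under 0.05). The count also fell to 0 without labelled *CIC* KO replicate A, to 2 without labelled *CIC* KO replicate B and to 2 without *ERF* KD + *CIC* KO replicate A, whereas it was 50 without *ERF* KD + *CIC* KO replicate B and 74 without WT replicate A. The 29 called genes that the rule named kept their direction in each of these settings. They were picked for their call in the full fit and, except *CD68*, had groups that did not overlap. Their kept direction is therefore no separate support.

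**Figure D1:**
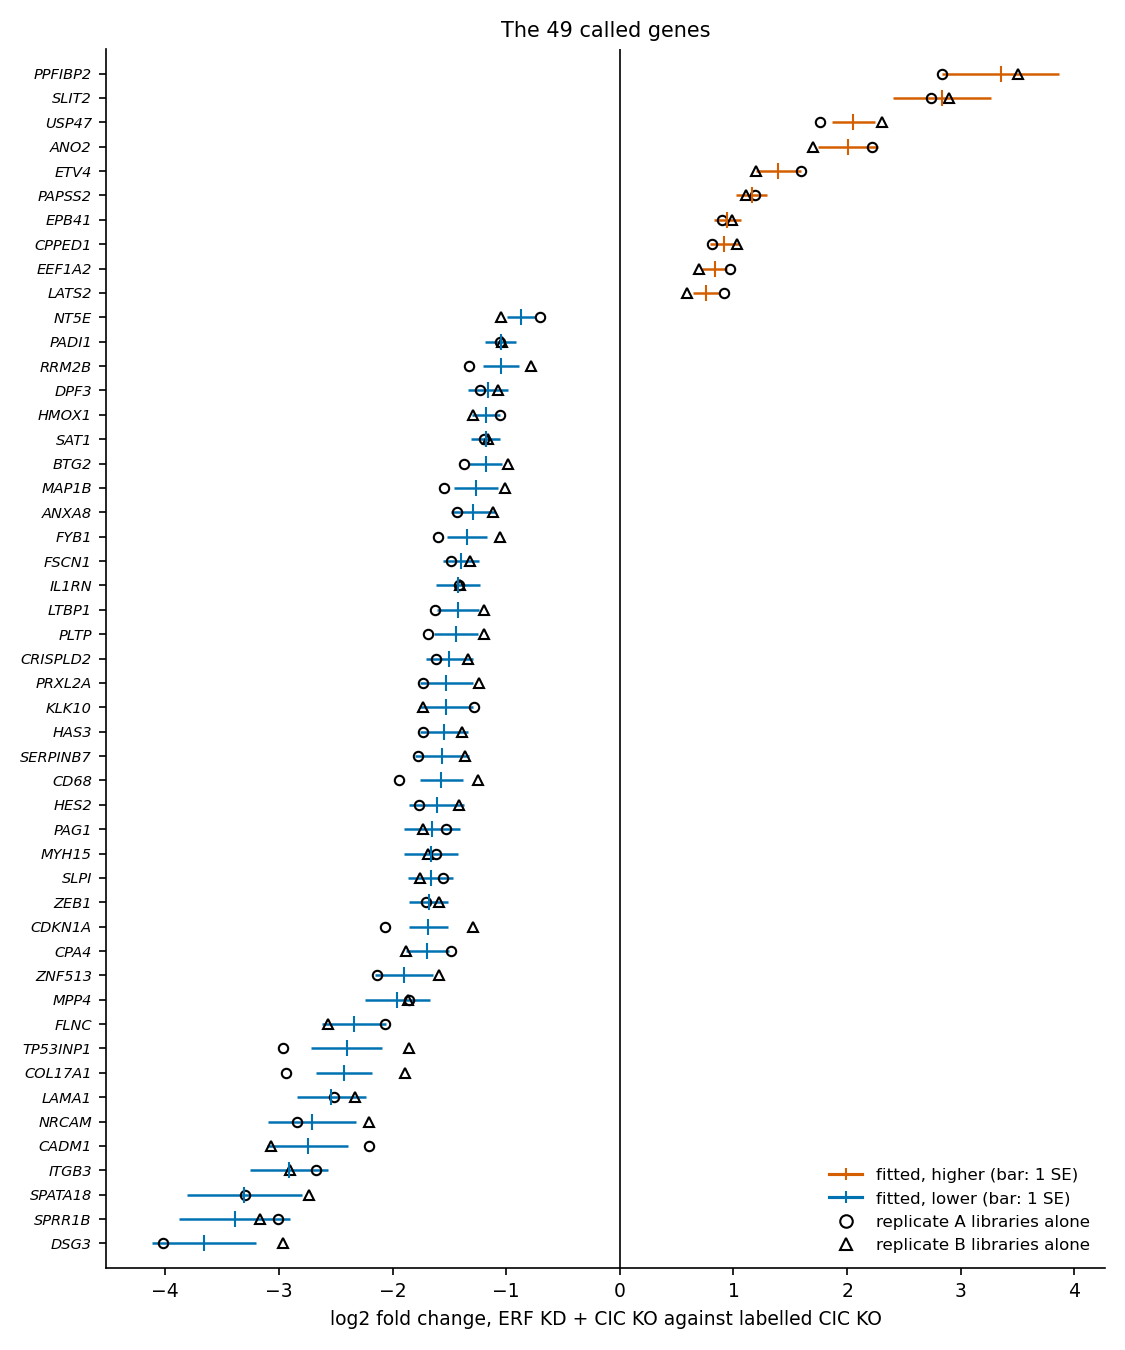
Log2 fold change (horizontal axis) of the 49 called genes, ordered by size, in *ERF* KD + *CIC* KO against the libraries labelled *CIC* KO; coloured ticks are fitted values with bars of 1 SE, and circles and triangles are the difference between the replicate A libraries alone and the replicate B libraries alone. The 10 higher genes run from *LATS2* (0.76) to *PPFIBP2* (3.35) and the 39 lower genes from *NT5E* (-0.87) to *DSG3* (-3.66), and no circle or triangle lies across 0 from its fitted value.

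Of 16 tested genes that the tumour suppressor p53 activates, 4 fell in the double loss and none rose. RNA was taken from whole cultures, in which fewer expressing cells and less RNA per cell cannot be told apart. *CDKN1A* encodes p21, the cyclin-dependent kinase inhibitor that p53 induces to stop the cell cycle, and lies on chromosome 6 (36676460 to 36687339). It was at 196 and 239 CPM in the libraries labelled *CIC* KO and at 46.9 and 97.3 CPM in *ERF* KD + *CIC* KO, beside 103 and 180 CPM in WT. Both double-loss libraries were below both WT libraries as well. *CDKN1A* fell by 1.68 on the log2 scale (SE 0.17, adjusted p = 0.0209). *TP53INP1*, a p53-induced nuclear protein that promotes p53 activity, went from 19.9 and 16.7 CPM to 2.46 and 4.57 CPM. This fall of 2.41 (SE 0.31, adjusted p = 0.0308) was the largest on the list, and WT had 18.4 and 20.4 CPM. *BTG2*, an antiproliferative gene, had 40.7 and 46.5 CPM and then 15.7 and 23.5 CPM, and fell by 1.18 (SE 0.15, adjusted p = 0.0292). WT had 21.2 and 29.8 CPM of it, so that replicate B of *ERF* KD + *CIC* KO lay within the WT values. *RRM2B*, the p53-inducible subunit of ribonucleotide reductase, had 70.3 and 66.9 CPM against 27.9 and 38.9 CPM and fell by 1.05 (SE 0.16, adjusted p = 0.0466).

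The other 12 genes of the p53 list did not pass the adjusted threshold, but none had a value above 0. Of the 16 genes tested, 4 were called lower and 0 higher, 15 had an unadjusted p under 0.05 with a lower value, and in 15 the groups did not overlap, with the double loss lower. Over all genes tested 18.8% had groups that did not overlap in that direction, and 50.1% had a log2 fold change under 0. Of the same genes 0.266% were called lower, and 7.64% had an unadjusted p under 0.05 with a lower value. The list's median log2 fold change was -1.02, with values from -2.41 to -0.11. *GDF15*, a secreted stress cytokine, was at 12.7 and 10.6 CPM and at 1.65 and 3.72 CPM (-2.15, SE 0.42, adjusted p = 0.0895). *MDM2*, the ubiquitin ligase that degrades p53, was at 21.3 and 15.5 CPM and at 10.4 and 8.12 CPM (-0.99, SE 0.27, adjusted p = 0.173). The death receptor gene *FAS* had 17.4 and 19.7 CPM against 5.59 and 10.8 CPM (-1.22, SE 0.23, adjusted p = 0.0866). *XPC*, a DNA damage recognition factor, was the list's exception, with overlapping groups and a difference of -0.11 (SE 0.11, adjusted p = 0.691).

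**Figure D2:**
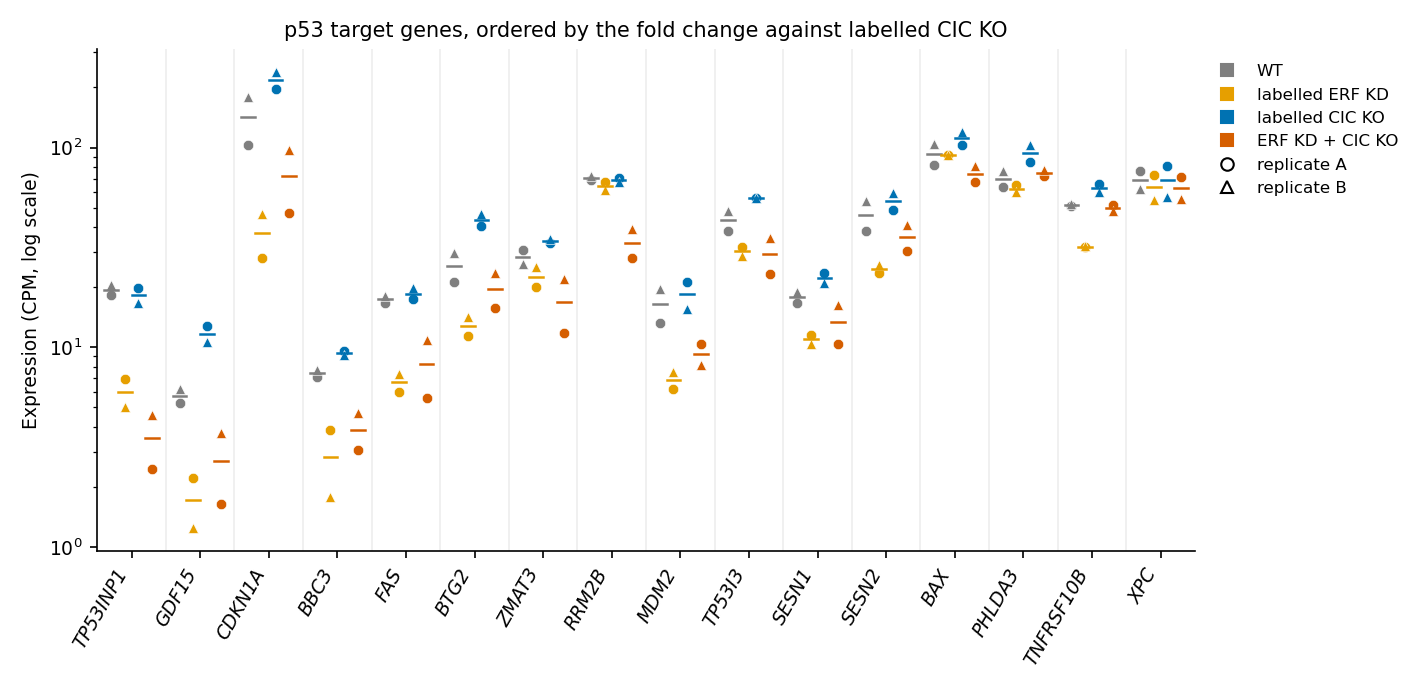
Expression (CPM, log scale) of the 16 p53 target genes in the 8 libraries, ordered by fold change; colours are the groups, circles and triangles are replicates A and B, and lines are means of 2 libraries. In 15 of the 16 genes both *ERF* KD + *CIC* KO libraries lie below both libraries labelled *CIC* KO, and *XPC* is the exception.

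The lower p53 target levels were found within each replicate letter. In replicate A all 16 differences were under 0, with a median of -1.30 on the log2 scale. Replicate B also had all 16 under 0, with a median of -0.73. Over all genes 29.1% were under 0 in both letters. Both WT libraries were above both double-loss libraries for 11 of the 16 targets (3671 of all 14653 genes were). This count uses the same 2 double-loss libraries, so it is no separate support. The summed level of the 16 was 812 and 766 TPM in the libraries labelled *CIC* KO, above the 616 and 701 TPM of WT. It was 420 and 481 TPM in *ERF* KD + *CIC* KO. The share of counts on mitochondrial genes moved with the comparison in replicate A, from 1.996% in the library labelled *CIC* KO to 0.910% in *ERF* KD + *CIC* KO, and was 1.141% and 1.145% in replicate B. The 8 mitochondrial genes tested had a median of -0.62, which was -0.98 for replicate A and -0.15 for replicate B. Of them 0 were called, and 5 had an unadjusted p under 0.05, all lower (7.64% of all genes). Each letter holds 1 library per group, and the part of the mitochondrial share in the p53 target values was not tested.

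Outside the p53 list, *SPATA18*, which takes part in the removal of damaged mitochondrial proteins and is induced by p53, was at 3.77 and 3.56 CPM and then at 0.296 and 0.451 CPM, a fall of 3.30 (SE 0.50, adjusted p = 0.0466). *SAT1*, which acetylates polyamines for their breakdown, was chosen for mention after its values were seen and went from 62.9 and 89.6 CPM to 27.4 and 40.0 CPM, a fall of 1.18 (SE 0.13, adjusted p = 0.0246). Counts of *SPATA18* were low, and 3 counts, taken as the floor of detection, are 0.116 and 0.154 CPM in the 2 double-loss libraries.

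Of the 3 PEA3 factors *ETV4* rose in the double loss, and *ETV1* and *ETV5* had higher values that did not pass the test. *ETV4* (chromosome 17, 43527844 to 43579620) was at 20.4 and 27.3 CPM in the libraries labelled *CIC* KO, near the 17.4 and 23.5 CPM of WT, and at 61.8 and 62.8 CPM in *ERF* KD + *CIC* KO. Its log2 fold change was 1.39 (SE 0.20, adjusted p = 0.038). *ETV5* had 31.4 and 34.9 CPM against 66.5 and 55.4 CPM (0.88, SE 0.19, adjusted p = 0.101). *ETV1* had 11.8 and 11.4 CPM against 19.5 and 22.4 CPM (0.85, SE 0.19, adjusted p = 0.113). For neither gene did the groups overlap (17.2% of all genes were apart with the double loss higher), and both differences missed the adjusted threshold, with unadjusted p-values of 0.00131 and 0.00171. *ETV5* was called with DESeq2, with no filter and with only the 4 libraries compared, and *ETV1* with DESeq2 and with no filter. Over 17 alternatives the adjusted p ran from 0.00334 to 0.635 for *ETV5* and from 0.0132 to 0.589 for *ETV1*. All 3 PEA3 genes were above 0 in both replicate letters, which 28.3% of all genes were.

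The feedback inhibitors of MAPK signalling, several of which CIC is known to repress, gave no call. Of 18 tested, 15 had a log2 fold change above 0, 3 had an unadjusted p under 0.05 with a higher value, and the median was 0.25. The shares among all genes tested were 49.9% above 0 and 6.71% higher at an unadjusted p under 0.05. *SPRED1*, which blocks activation of RAF, was at 33.2 and 36.4 CPM and at 54.7 and 42.2 CPM (0.47, SE 0.15, adjusted p = 0.231). The related *SPRED2* had 50.5 and 48.2 CPM against 63.4 and 55.5 CPM, a difference of 0.27 (adjusted p = 0.386). *DUSP4* and *DUSP5*, phosphatases that inactivate ERK in the nucleus, differed by 0.35 and 0.12 (adjusted p = 0.433 and 0.786). The cytoplasmic ERK phosphatase *DUSP6* was at 6.83 and 13.9 CPM in the libraries labelled *CIC* KO, on either side of the double loss, and its fitted difference of 0.05 (SE 0.28) turned to -0.03 without the replicate block. The Sprouty genes *SPRY2* and *SPRY4*, inhibitors of receptor tyrosine kinase signalling, differed by 0.17 and 0.48 (adjusted p = 0.639 and 0.46), and *SPRY4* and *DUSP5* changed sign without *ERF* KD + *CIC* KO replicate A. A list of genes bound by CIC in PNT2 cells and by ERF in VCaP cells, another prostate line, was examined as well. Of its 91 genes 58 were tested, of which 41 were above 0 (49.9% of all genes were) and 17 below. The median was 0.24, and *ETV4* was the only call.

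**Figure D3:**
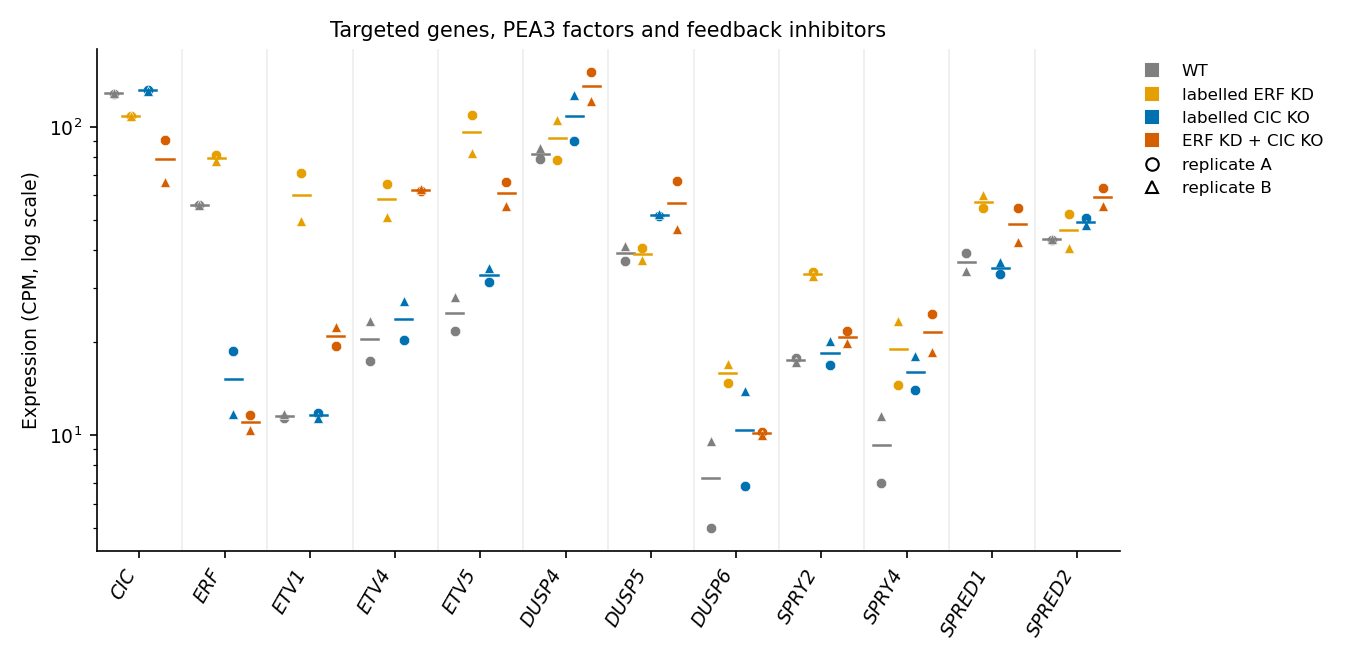
Expression (CPM, log scale) of *CIC*, *ERF*, the 3 PEA3 factors and 7 feedback inhibitors in the 8 libraries; colours are groups, circles and triangles are replicates A and B, and lines are means of 2 libraries. *ERF* is low in the 4 libraries compared (10.4 to 18.8 CPM), and *ETV4* is higher in both *ERF* KD + *CIC* KO libraries (61.8 and 62.8 CPM) than in WT and the libraries labelled *CIC* KO (17.4 to 27.3 CPM).

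Among the lower calls were members of the basal, junction, integrin, matrix and adhesion lists, each with its own role in attachment. *COL17A1*, a transmembrane collagen of hemidesmosomes that anchors basal cells to the basement membrane, had 108 and 149 CPM in the libraries labelled *CIC* KO and 14.01 and 39.98 CPM in *ERF* KD + *CIC* KO. It fell by 2.43 (SE 0.25, adjusted p = 0.0209), and WT had 74.3 and 151 CPM. *DSG3*, a desmosomal cadherin of basal epithelium, went from 6.28 and 6.40 CPM to 0.296 and 0.733 CPM and fell by 3.66 (SE 0.46, adjusted p = 0.0292), the largest change of any called gene. *ITGB3*, the integrin beta-3 chain, went from 6.18 and 6.54 CPM to 0.889 and 0.789 CPM, a fall of 2.91 (SE 0.34, adjusted p = 0.0256). It shares 51.6% of its exonic bases with *AC068234.1* on the same strand, so its counts carry an added uncertainty. *LAMA1*, a laminin chain of basement membranes, had 4.32 and 5.77 CPM and then 0.677 and 1.07 CPM (a fall of 2.54, SE 0.30, adjusted p = 0.0256).

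The cell adhesion molecules *CADM1* and *NRCAM*, both of the immunoglobulin superfamily, were also lower. *CADM1* had 3.49 and 3.56 CPM in the libraries labelled *CIC* KO and 0.677 and 0.338 CPM in *ERF* KD + *CIC* KO, and fell by 2.75 (SE 0.36, adjusted p = 0.0308). *NRCAM* had 3.63 and 3.99 CPM against 0.423 and 0.789 CPM and fell by 2.71 (SE 0.39, adjusted p = 0.038). *FLNC*, an actin crosslinker, was at 10.97 and 9.19 CPM and at 2.54 and 1.47 CPM, a fall of 2.34 (SE 0.28, adjusted p = 0.0256). *FSCN1*, which bundles actin in cell protrusions, was chosen for mention after its values were seen and had 163 and 219 CPM against 58.1 and 87.7 CPM, a fall of 1.40 (SE 0.16, adjusted p = 0.0249). *LTBP1*, which stores latent TGF-beta in the matrix, had 23.6 and 21.2 CPM against 7.58 and 9.19 CPM and fell by 1.42 (SE 0.18, adjusted p = 0.0308).

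Most of these calls were single members of their lists. Among all genes tested 0.334% were called, 50.1% were below 0 and 49.9% above. An unadjusted p under 0.05 with a lower value was found for 7.64%. Of 11 basal epithelial genes tested 1 was called (*COL17A1*), 6 had an unadjusted p under 0.05, all lower, and the median was -0.67. Of 17 integrins 1 was called, 14 were below 0, and the median was -0.26. The 33 extracellular matrix genes had 1 call and a median of -0.17, the 24 adhesion and guidance genes had 1 higher and 2 lower calls and a median of -0.16, and the 22 TGF-beta and BMP genes had 1 call and a median of -0.01. Among 32 epithelial junction genes *DSG3* was the only call, 21 members were above 0, and the median was 0.10. The 23 matrix proteases and inhibitors had no call, with 19 below 0 and a median of -0.41.

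*ZEB1*, a zinc finger repressor of epithelial genes that drives epithelial-mesenchymal transition, fell. It was at 8.37 and 9.04 CPM in the libraries labelled *CIC* KO, at 2.50 and 2.93 CPM in *ERF* KD + *CIC* KO and at 6.08 and 7.04 CPM in WT, a fall of 1.68 between the groups compared (SE 0.17, adjusted p = 0.0209). Of 16 mesenchymal genes tested *ZEB1* was the only call, 12 were below 0 and 4 above, and the median was -0.35. An unadjusted p under 0.05 was found for 5 lower and 2 higher members (7.64% and 6.71% of all genes). Among all genes tested 50.1% were below 0 and 49.9% above. *VIM*, the mesenchymal intermediate filament gene, added after its values were seen, was at 131 and 212 CPM and at 32.4 and 109 CPM (-1.43, adjusted p = 0.0866).

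Of the other lower genes that the rule named, *SPRR1B*, a precursor of the cornified envelope, was at 1.02 and 9.86 CPM and at 0.0423 and 1.01 CPM, and fell by 3.39 (SE 0.49, adjusted p = 0.038). Its groups were separated only narrowly, since replicate A was lower than replicate B in each group. *CPA4*, a secreted carboxypeptidase, went from 14.4 and 10.7 CPM to 5.08 and 2.82 CPM (a fall of 1.69, SE 0.19, adjusted p = 0.0249). *MPP4*, a membrane scaffold gene, had 2.09 and 7.46 CPM against 0.508 and 1.97 CPM and fell by 1.96 (SE 0.28, adjusted p = 0.0389). *ZNF513*, a zinc finger factor, was at 9.44 and 8.52 CPM and at 2.07 and 2.76 CPM (a fall of 1.90, SE 0.25, adjusted p = 0.0308). *CD68*, a lysosomal protein used as a macrophage marker, fell by 1.57 (SE 0.19, adjusted p = 0.0256), but its 2 groups overlapped (21.6 and 51.8 CPM against 5.54 and 21.8 CPM) and it shares 81.7% of its exonic bases with *AC016876.2* on the same strand. The remaining 20 called genes were all lower, with log2 fold changes from -1.67 to -0.87. Groups overlapped for 2 of them, *IL1RN* and *SERPINB7*, where replicate A was again lower than replicate B.

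Of the 10 higher genes *PPFIBP2*, which encodes a liprin-beta scaffold, had the largest change. It was at 0.604 and 0.241 CPM in the libraries labelled *CIC* KO and at 4.91 and 3.72 CPM in the double loss (3.35, SE 0.51, adjusted p = 0.0466). *SLIT2*, a secreted ligand of ROBO receptors that guides axons and migrating cells, rose from 4.74 and 2.50 CPM to 32.3 and 19.2 CPM, above the 7.22 and 4.64 CPM of WT (2.84, SE 0.43, adjusted p = 0.0466). The chloride channel gene *ANO2* rose from 3.81 and 2.69 CPM to 18.2 and 8.97 CPM (2.01, SE 0.27, adjusted p = 0.0308). *PAPSS2*, which makes the sulfate donor of the cell, rose from 13.2 and 9.72 CPM to 30.3 and 21.1 CPM (1.16, SE 0.14, adjusted p = 0.0256), although WT had 24.2 and 17.3 CPM. *EPB41* (a membrane skeleton protein, 0.95), *CPPED1* (a phosphatase, 0.92), *EEF1A2* (a translation elongation factor, 0.83) and *LATS2* (a kinase of the Hippo pathway, 0.76) rose by smaller amounts, with adjusted p-values from 0.0292 to 0.0469. *EEF1A2* had the highest CPM of the 10 genes, at 299 and 324 CPM and then 586 and 524 CPM.

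*USP47*, a deubiquitinating enzyme on chromosome 11 (11841423 to 11959323), had the lowest p of all genes in this comparison. It rose from 24.6 and 17.0 CPM to 83.9 and 84.6 CPM (2.05, SE 0.19, adjusted p = 0.0209), and WT had 31.4 and 24.3 CPM. The increase lay mostly in 1 annotated transcript, USP47-207, which was at 0.602 and 0.559 TPM in the libraries labelled *CIC* KO and at 20.4 and 20.6 TPM in *ERF* KD + *CIC* KO, whereas USP47-202 was at 2.48 and 1.39 TPM and at 2.19 and 1.97 TPM. None of 7 tested genes within 1 megabase of *USP47* was called, with a median log2 fold change of -0.16, and none of 19 around *PPFIBP2*. For *PPFIBP2* the transcript PPFIBP2-212, annotated as a retained intron, was at 0 in both libraries labelled *CIC* KO and at 2.41 and 2.84 TPM in the double loss. Reads that fit several transcripts are divided between them by estimation, so these transcript levels are less certain than those of the genes.

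A promoter sequence was at hand for 10869 of the 14653 tested genes (RefSeq, GRCh38.p14, 250 bases before to 50 after the start), and it was searched on both strands for the octamers that CIC binds, TGAATGAA, TCAATGAA, TGAATAAA and TCAATAAA, and for TGAATGGA, a variant known from an *ETV1* regulatory element. At least 1 of the 4 octamers was in 2.72% of these promoters, and 3.28% held an octamer or the variant. Of 7 higher genes with a promoter sequence 0 held either, and of 29 lower genes 2 did (6.90%), *SERPINB7* and *ZNF513*. Of the PEA3 factors 1 had a promoter sequence, with no match, and of 16 feedback inhibitors 2 had one (*DUSP10* and *SPRED3*). The windows of both called genes are shown since they are the only called promoters with a match, 5′ to 3′ along the gene's strand with the match in capitals, and the match is on the opposite strand in *SERPINB7*.
ZNF513 (chr2:27380706-27380733, minus strand): gggggctccaTGAATGGAagcggcggcg
SERPINB7 (chr18:63752920-63752947, plus strand): ggagggacttTTCATTCAgtgctgtcac
A match is a description of these letters and not a measured binding site, and both genes were lower in the double loss.

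**Figure D4:**
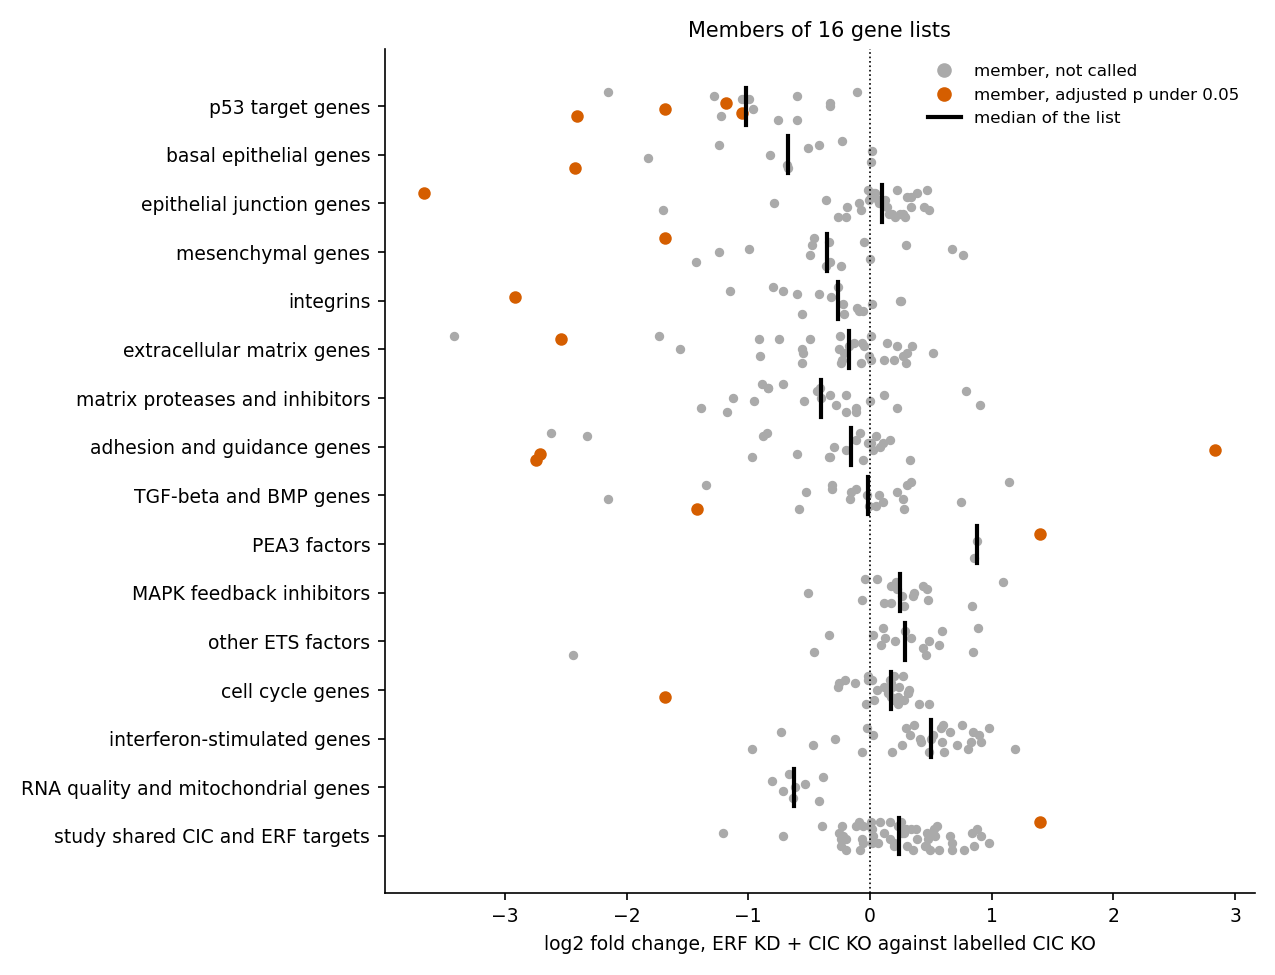
Log2 fold change (horizontal axis) of the members of 16 gene lists in *ERF* KD + *CIC* KO against the libraries labelled *CIC* KO; grey points are members that were not called, orange points are called members, and black bars are list medians. The p53 target list has the lowest median (-1.02, 4 calls) and the PEA3 list the highest (0.88, 1 call); 2 members with no counts in either library of a group, *CDKN1C* and *TMEFF2*, are not drawn.

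Lists of inflammatory and proliferative genes gave few calls. The 31 interferon-stimulated genes had a median of 0.50 and 0 calls, with 7 at an unadjusted p under 0.05, all higher. Their difference depended on the letter, with 28 of 31 above 0 and a median of 0.93 in replicate A and with 15 of 31 above 0 and a median of -0.16 in replicate B. Of 31 cell cycle genes *CDKN1A* was the only call, and 23 of the list were above 0, with a median of 0.17. The shares among all genes tested were 49.9% above 0 and 6.71% higher at an unadjusted p under 0.05. The mitotic kinase gene *PLK1*, added after its values were seen, was at 252 and 266 CPM and at 350 and 336 CPM (0.40, adjusted p = 0.15). Proliferation itself was not measured in these files.

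The 49 genes were then set beside labelled *ERF* KD against WT, a comparison that shares no library with the first and that, by the letters of the file names, would also add the loss of *CIC*. In that comparison 2671 genes were called (18.2%), 1230 higher (8.39%) and 1441 lower (9.83%). Of the 39 genes lower in the double loss, 18 were called lower and 10 higher there. These 18 are 46.2% of the 39 and 1.25% of the 1441. Of the 10 higher genes 4 were called higher and 4 lower. The difference between both comparisons, tested as a contrast in the same fit, was called for 25 of the 39 and for 7 of the 10 genes. Over all genes 9.55% passed that test, 5.32% with a positive and 4.23% with a negative difference. The 49 genes were selected by the first comparison, which is part of the difference. A larger share than among all genes therefore follows in part from the selection.

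For *ETV4* and 15 of the 16 p53 targets no difference between the comparisons was called. For *CDKN1A* the log2 fold change in labelled *ERF* KD against WT was -1.92, and the difference between the comparisons was 0.24 (adjusted p = 0.614). Of the 16 p53 targets all were below 0 there (49.5% of all genes were), 9 were called lower (9.83% of all genes), and the median was -0.79. The difference between the comparisons was called for 1 of the 16, *RRM2B* (-0.93, adjusted p = 0.0352), which was at 68.5 and 71.7 CPM in WT and 67.5 and 61.0 CPM in the libraries labelled *ERF* KD. *ETV4* was higher by 1.53 in labelled *ERF* KD against WT, with a difference of -0.13 (adjusted p = 0.835). *ETV1* was higher there by 2.37 and *ETV5* by 1.94, and for both the value in the double loss, which did not pass the test, was smaller (differences of -1.52 and -1.06, adjusted p = 0.0092 and 0.0387). A difference that missed the threshold does not show equal change, since its SE was 0.28 for *ETV4*.

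Several called genes moved in opposite directions in the 2 comparisons. *ZEB1* was at 41.1 and 49.0 CPM in the libraries labelled *ERF* KD and was higher than in WT by 2.78, against its fall in the double loss (difference -4.46, adjusted p = 3.73e-05). *ITGB3* was at 23.8 and 14.8 CPM there and higher by 2.19 (difference -5.10, adjusted p = 0.000347). *SLIT2* was at 0 and 0.348 CPM in the libraries labelled *ERF* KD, and *ANO2* at 0.240 and 0.149 CPM, whereas both rose in the double loss (differences of 7.86 and 5.53, adjusted p = 0.000624 and 0.000314). *COL17A1* and *DSG3* were lower in both comparisons, and their differences of 1.18 and -0.15 did not pass (adjusted p = 0.0729 and 0.923). The epithelial junction list had 28 of 32 members called lower in labelled *ERF* KD against WT (9.83% of all genes were). Its median there was -2.10, beside the 1 call and the median of 0.10 given above.

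**Figure D5:**
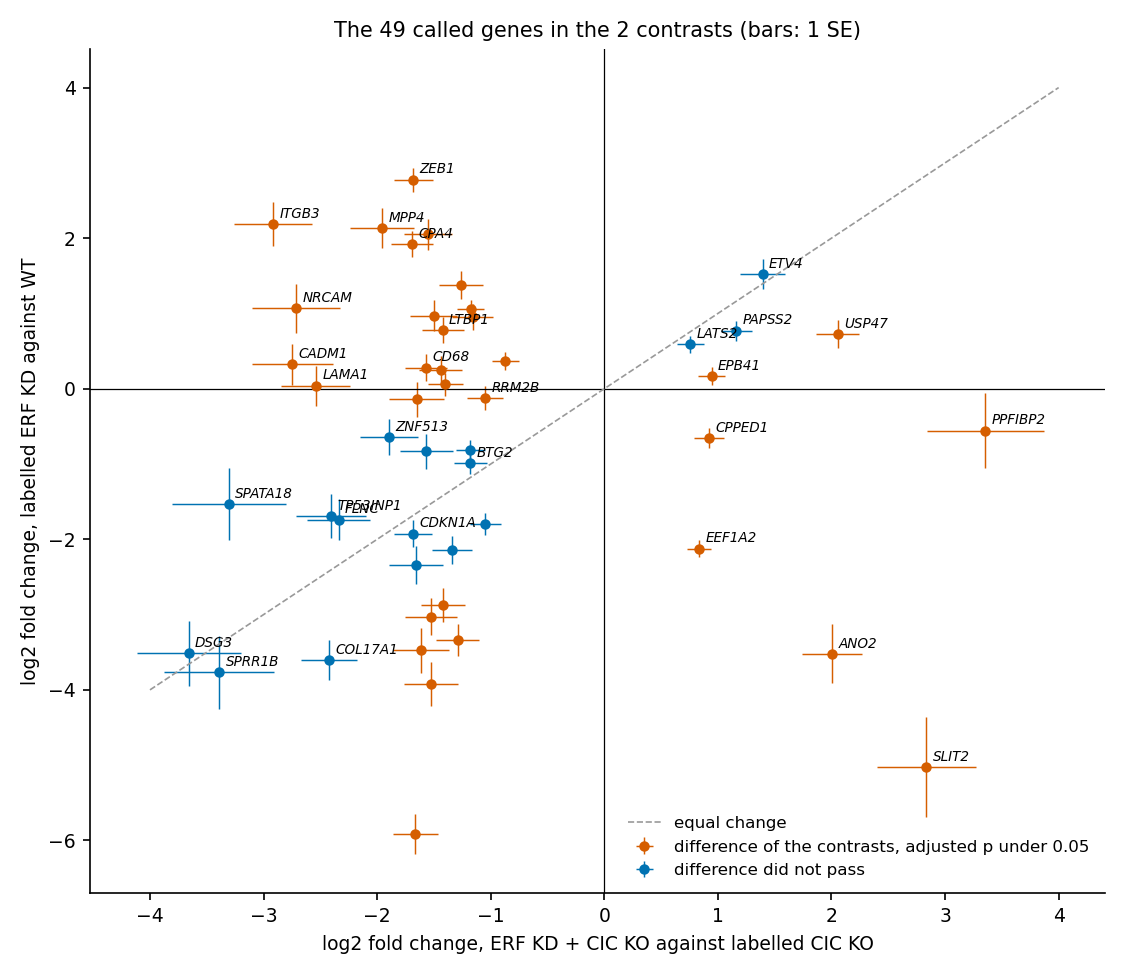
Log2 fold changes of the 49 called genes in *ERF* KD + *CIC* KO against labelled *CIC* KO (horizontal axis) and in labelled *ERF* KD against WT (vertical axis), with bars of 1 SE; orange points passed the test of the difference between the comparisons, and the dashed line marks equal change. *CDKN1A*, *ETV4* and *DSG3* lie near the line, while *ZEB1* and *ITGB3* at the upper left and *SLIT2* and *ANO2* at the lower right moved in opposite directions.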

How the data were processed

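RNA-seq libraries of PNT2 cells were made and sequenced by a company. The authors deposited, for each library, estimated counts per transcript (not normalized) and TPM in the format of kallisto. The methods name RSEM instead, the kallisto version is not given in the sources used here, and the submitters' processing notes name build hg19. Of 180253 transcripts 153245 (85.0%) were found in GENCODE release 29 (GRCh38), which gave whole-number totals for 33791 genes after summing and rounding. These held 93.2% to 93.3% of each library's counts.

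Genes passing filterByExpr (14653) were tested with edgeR 4.0.16 (R 4.3.3), TMM scaling, glmQLFit and glmQLFTest, in 1 fit of the 8 libraries with the replicate letter as a block. The SE is the log2 fold change divided by the square root of F. The letter was set as a block when the comparison was defined, before its use was checked. The A minus B differences of every pair of groups were correlated across genes (0.136 to 0.335). The correlation was lowest, 0.136, for the 2 groups compared here. The labels do not say what a letter stands for. Replicates differed by more than sampling noise (chi-square per degree of freedom 21.5 to 43.1). The biological coefficient of variation was 0.142 with the block and 0.197 without it. No exact permutation test was used, since 2 against 2 allows no 2-sided p below 0.333.

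The members, gene lists and tests were chosen with earlier results of these data known. The text names *CIC*, *ERF*, the PEA3 factors, 7 feedback inhibitors, called list members, and up to 15 called protein-coding genes per direction with the largest change among those that averaged 1 CPM or more and did not overlap between groups. Other genes named, among them further p53 targets, were chosen after their values were seen. Alternatives included DESeq2 1.42.0 and limma 3.58.1 on log2(TPM + 1) and log2(TPM + 0.1). Intervals of counting error were not computed, and precision is given by the SE between libraries.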

Additional observations from a re-analysis of the deposited data

Results flagged for a closer look

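For 20 genes named by the rule the change in *ERF* KD + *CIC* KO against labelled *CIC* KO differed from the change in labelled *ERF* KD against WT, by a test of the difference itself (adjusted p under 0.05 in edgeR's quasi-likelihood test, where 9.55% of all genes passed). The difference is the first log2 fold change minus the second. Most of the 20 were named for their call in the first comparison, so their number cannot be read against the share over all genes. It was positive for *SLIT2* (7.86), *ANO2* (5.53), *PPFIBP2* (3.91), *EEF1A2* (2.96), *CPPED1* (1.58), *USP47* (1.33) and *EPB41* (0.78). It was negative for *ITGB3* (-5.10), *ZEB1* (-4.46), *MPP4* (-4.09), *NRCAM* (-3.78), *CPA4* (-3.62), *CADM1* (-3.07), *LAMA1* (-2.58), *LTBP1* (-2.20), *CD68* (-1.85), *ETV1* (-1.52), *ETV5* (-1.06), *ERF* (-0.96) and *RRM2B* (-0.93). For *ETV1* and *ETV5* the values in the double loss did not pass the test by themselves. Of the called genes named outside the rule *IL1RN* (1.45), *FSCN1* (-1.46) and *NT5E* (-1.24) also passed the test of the difference. *SLIT2* and *ANO2* were close to the floor of detection in the libraries labelled *ERF* KD, so the size of their differences is uncertain.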

How the results depend on the processing

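The number of genes called in *ERF* KD + *CIC* KO against labelled *CIC* KO (49, of which 20.4% were higher) depended strongly on the processing. It was 0 without the replicate block, 395 with DESeq2 (155 higher, 240 lower), 31 with upper-quartile scaling, 322 with no filter on low counts (108 higher, 214 lower), 22 on length-scaled counts, 0 with limma on log2(TPM + 1) or log2(TPM + 0.1), and 275 with only the 4 libraries compared (100 higher, 175 lower). Leaving out 1 library gave 0 to 74 calls. Labelled *ERF* KD against WT gave 2671 calls, 1477 without the replicate block and 1299 with a log2 fold change of at least 1, and 1261 to 3047 with 1 library left out. The difference of both comparisons gave 1400 calls, 608 without the replicate block, 774 and 791 with limma at pseudocounts of 1 and 0.1, and 580 to 1310 with 1 library left out.

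Of the 29 called genes that the rule named, 29 were still called with no filter, the stricter filter and the 4-library fit, 28 with DESeq2, 21 with upper-quartile scaling, 12 on length-scaled counts, and 0 with limma or without the block. None changed direction in any alternative run, but these genes were picked for their calls in the full fit, so this is no separate support. *CIC*, *ETV5* and *ETV1* gained a call with DESeq2 and with no filter, and *CIC* and *ETV5* also in the 4-library fit. *DUSP6*, which was not called, changed sign without the block (-0.0314), on length-scaled counts (-0.0741), with limma at pseudocounts of 1 (-0.10) and 0.1 (-0.11), without labelled *CIC* KO replicate A (-0.27) and without *ERF* KD + *CIC* KO replicate A. With 1 library left out *DUSP6* ran from -0.32 to 0.41, *DUSP5* from -0.16 to 0.37 and *SPRY4* from -0.0693 to 0.93, each lowest without *ERF* KD + *CIC* KO replicate A and highest without its replicate B. The cause of these shifts was not tested. With 2 libraries per group, small changes such as those of the feedback inhibitors could not be resolved.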
